A study of Homo sapiens with 6 samples.

Results

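Aminoacyl-tRNA synthetases are the enzymes that load each tRNA with its amino acid, and 36 genes encoding them were followed in A549 cells with and without a TFAM plasmid. They were chosen as the rows of the deposited count table whose symbol is that of a synthetase, 36 of 29845 genes, and they were described in 4 classes. These are WARS, the enzyme for tryptophan that interferon is known to induce (1 gene), the cytosolic enzymes known as targets of the stress factor ATF4 (12 genes), the remaining cytosolic enzymes (7 genes), and the mitochondrial enzymes, whose symbols end in ARS2 (16 genes). A549 is an established human cell line from a lung carcinoma, of epithelial origin. The control group was transfected with the empty vector (control plasmid) and the TFAM-OE group with the same vector carrying FLAG-tagged TFAM, the mitochondrial transcription factor A. All cells were harvested at a single time after transient transfection, and the polyA RNA of 3 biological replicates per group was sequenced. The vector also carries a green fluorescent protein gene, and the cells were not described as sorted for it, so each library holds transfected and untransfected cells together. In such bulk RNA, fewer cells expressing a gene and less of its RNA per cell cannot be told apart.

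The 6 libraries held between 26650854 and 37321956 counted reads, of which the synthetase genes took between 0.352% and 0.398%. The keratin genes KRT7, KRT8 and KRT18 were among the abundant genes of every library, whereas EPCAM reached at most 1.07 CPM (read counts scaled to the library total and by TMM). The epithelial marker CDH1 was also low and was uneven, at 4.94, 4.37 and 3.79 CPM in the control and 3.76, 4.15 and 8.30 CPM in TFAM-OE. The blood cell marker PTPRC had a single read in all libraries together. Of 9 markers of other cell types, 8 were in the table, and their summed level was 29.6 to 33.8 CPM in the control and 24.9 to 26.6 CPM in TFAM-OE. Of the 4 that passed the filter on low counts, CD14 was called higher and CD68 lower, both under 6 CPM, and their part in the results was not tested. On the TFAM gene itself fell 2555, 1878 and 2663 reads of the control, against 2291, 2808 and 2492 of TFAM-OE. Its log2 fold change was 0.08 (SE 0.096, adjusted p = 0.623 by edgeR), and the groups overlapped. The reads on the TFAM gene therefore did not separate the groups, and TFAM-OE here names the libraries by their label. The study checked the overexpression at the protein level, by a western blot against the FLAG tag, which these RNA counts do not measure.

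Cytosolic synthetases serve translation on cytoplasmic ribosomes, and a separate set of nuclear genes encodes the enzymes that are imported to charge mitochondrial tRNAs. GARS and KARS each provide both compartments from a single gene. No separate mitochondrial glutaminyl enzyme exists in human cells: EARS2 first loads glutamate on the glutamine tRNA of mitochondria, and the GatCAB amidotransferase (GATB, GATC and QRSL1) converts it. When amino acids run short or the endoplasmic reticulum is stressed, ATF4 is translated and binds C/EBP-ATF response elements near the start of many cytosolic synthetase genes. WARS carries an interferon-stimulated response element and is among the proteins that interferon-gamma raises most in human cells.

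The promoters of 30 of the 36 genes were read from RefSeq (GRCh38.p14), as windows from 250 bases before to 50 bases after each annotated start. LARS, VARS, YARS, DARS, AARS2 and VARS2 had no entry. The windows were searched on both strands for the interferon-stimulated response element (ISRE, 2 copies of GAAA with any 2 bases between them), the gamma-activated site (GAS, TTCNNNGAA) and the C/EBP-ATF response element (CARE, TGATGNAA). Of the 2 annotated WARS promoters, the inner one held an ISRE and a GAS, and neither held a CARE. It is shown first, above 3 interferon-induced genes, with the ISRE in capitals as it reads along the strand of the gene.
WARS ISRE, chr14:100375383-100375412, minus strand: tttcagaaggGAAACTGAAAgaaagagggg
ISG15 ISRE, chr1:1013380-1013409, plus strand: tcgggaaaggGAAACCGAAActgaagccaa
IFIT1 ISRE, chr10:89392510-89392539, plus strand: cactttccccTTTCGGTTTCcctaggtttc
GBP1 ISRE, chr1:89065316-89065345, minus strand: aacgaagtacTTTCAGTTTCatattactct

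An ISRE was found in 3.57% of the 35116 promoters in the table, which belong to 27305 genes, 1195 of them with an ISRE. A gene counts as having a motif if any of its promoters has it. The ISRE was in 6 of 11 matched interferon genes used for comparison. No cytosolic synthetase other than WARS had an ISRE in its window, and of the mitochondrial enzymes EARS2 had one. The GAS was in 7.66% of all promoters (2560 of the 27305 genes) and in 5 of the 11 matched interferon genes. Among the synthetases it was not particular to WARS, since CARS, TARS, PARS2 and WARS2 also had it. The CARE was in 3.62% of all promoters (1217 of the 27305 genes). It was in 7 of the 9 matched ATF4-linked cytosolic synthetases, in 0 of the 6 matched other cytosolic enzymes, and in 1 of the 14 matched mitochondrial enzymes (YARS2). Of 22 matched ATF4 targets that are not synthetases, 5 had it, as did 2 of the 11 matched interferon genes. The 7 synthetases are shown with ASNS, the asparagine synthetase gene and a standard target of ATF4, with the element in capitals.
AARS CARE, chr16:70289675-70289704, minus strand: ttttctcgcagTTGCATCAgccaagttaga
CARS CARE, chr11:3057407-3057436, minus strand: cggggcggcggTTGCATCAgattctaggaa
GARS CARE, chr7:30594834-30594863, plus strand: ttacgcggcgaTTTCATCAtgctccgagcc
IARS CARE, chr9:92293692-92293721, minus strand: ttttcagcgcgTTGCATCAcctccgtgcgc
MARS CARE, chr12:57488053-57488082, plus strand: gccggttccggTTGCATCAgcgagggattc
NARS CARE, chr18:57621804-57621833, minus strand: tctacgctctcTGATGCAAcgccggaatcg
TARS CARE, chr5:33440956-33440985, plus strand: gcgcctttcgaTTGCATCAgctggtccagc
ASNS CARE, chr7:97872458-97872487, minus strand: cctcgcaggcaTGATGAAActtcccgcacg

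In 6 of the 7 synthetases the 8 letters were identical, read as TTGCATCA or as its reverse complement TGATGCAA, and GARS had TTTCATCA. The 5 elements of CARS, IARS, MARS, NARS and TARS lay within 14 bases of the annotated start, that of GARS 33 bases before it and that of AARS 187 bases before it. These are matches of letters, and no binding was measured in this series.

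Most synthetase genes were near their control level in TFAM-OE. In edgeR's quasi-likelihood test over 16555 genes, 2 of the 36 rose in TFAM-OE (QARS and VARS) and 0 fell at an adjusted p below 0.05. Over all genes tested, 8.29% were called, 3.48% higher and 4.81% lower, so the 5.56% of synthetases called higher stood near the background. At an unadjusted p below 0.05, 5 synthetases were higher and 0 lower, against 12.2% and 13.2% of all genes. DESeq2 and limma-voom each called the same 2 synthetases higher and 0 lower, where they called 5.63% and 3.41% of all genes higher. No synthetase passed the study's own rule, which asks in addition for a fold change of at least 2 and which 2.51% of all genes passed. All 36 genes had at least 167 reads in every library, and all passed the filter on low counts. For 32 of the 36, the 95% interval of the change lay within 1.5-fold in either direction, and the exceptions were QARS, VARS, EPRS and SARS2.

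**Figure D1:**
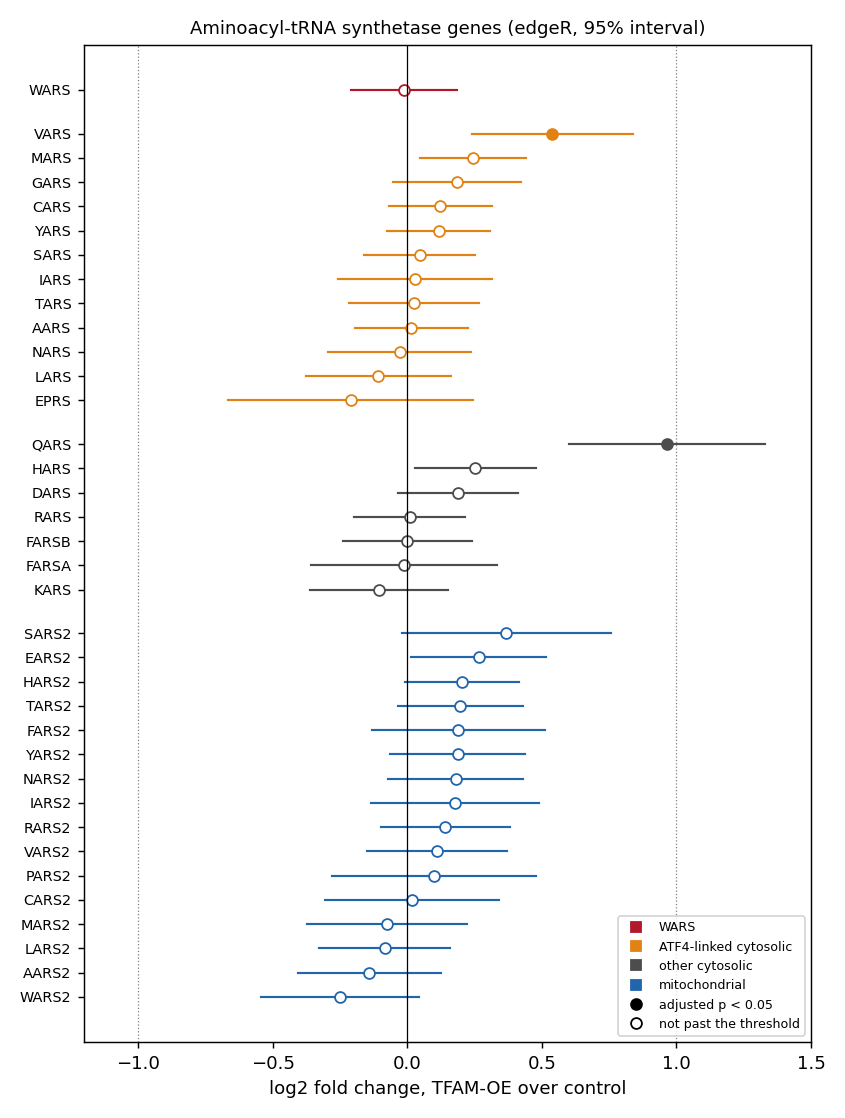
Log2 fold change of each synthetase gene, TFAM-OE over control, from edgeR with its 95% interval (n = 3 per group), by class. Filled points are past an adjusted p of 0.05, and the dotted lines mark a 2-fold change. QARS at 0.96 and VARS at 0.54 stand to the right of the other genes, and WARS sits at -0.013.

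WARS was the member of interest for interferon, since the interferon-stimulated genes were lower in these TFAM-OE libraries. WARS (ENSG00000140105.17, chromosome 14 of GRCh38 from 100333790 to 100376805, minus strand) had 157, 171 and 168 CPM in the control libraries and 168, 158 and 165 CPM in the TFAM-OE libraries. The groups overlapped, and the highest control library was above every TFAM-OE library. The means were 165 ± 7.52 CPM and 164 ± 5.41 CPM (SD, n = 3 each), which is 0.991-fold (95% interval 0.864 to 1.14; log2 fold change -0.013, SE 0.088, adjusted p = 0.943 by edgeR).

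The 12 interferon-induced genes set beside WARS moved otherwise. Of the 11 that passed the filter, 11 fell and 0 rose. Their log2 fold changes had a median of -1.99 and a range from -2.74 to -0.61, against a median of -0.01 over all genes tested. GBP1, a GTPase induced by interferon-gamma, had 27.8, 26.8 and 25.2 CPM in the control and 6.53, 6.14 and 5.40 CPM in TFAM-OE (log2 fold change -2.14, adjusted p = 1.78e-05 by edgeR). IRF1, which like WARS answers to interferon-gamma, changed least of the 11, at -0.61. These comparison genes were chosen with earlier results of these libraries known, so their fall is not an independent finding, and WARS lay outside their range.

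**Figure D2:**
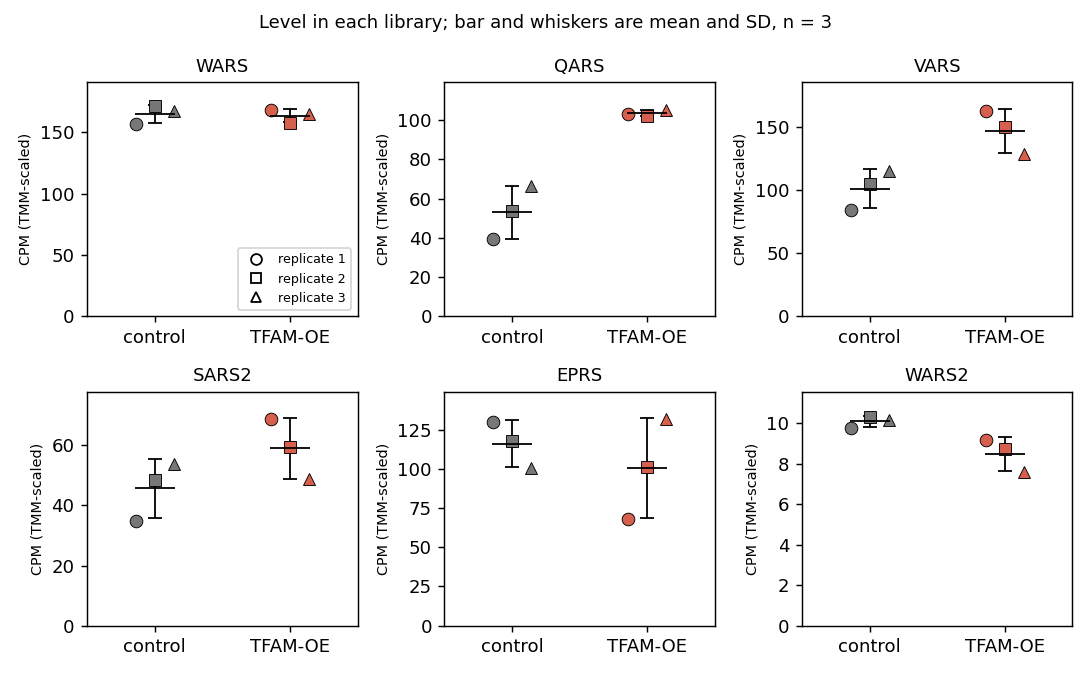
Level of 6 synthetase genes in each library, in TMM-scaled CPM from 0, with replicates 1, 2 and 3 as circles, squares and triangles and the mean and SD as bar and whiskers (n = 3 per group). The TFAM-OE points of QARS lie between 102 and 105 CPM, above every control point, and those of WARS lie among the control points.

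QARS, the cytosolic glutaminyl-tRNA synthetase, changed most. QARS (ENSG00000172053.14, chromosome 3 from 49095932 to 49105130, minus strand) drew 1316, 1430 and 2434 reads in the control, against 3281, 3714 and 3154 in TFAM-OE. Scaled, these were 39.2, 53.4 and 66.4 CPM against 103, 102 and 105 CPM. Every TFAM-OE library was above every control library, and the control libraries were spread far more widely than the TFAM-OE libraries. QARS was 1.95-fold higher (95% interval 1.51 to 2.51; log2 fold change 0.96, SE 0.16, adjusted p = 0.00833 by edgeR). Control replicate 1, the lowest for QARS, was the highest of the 6 libraries for the stress gene DDIT3 (69.3 CPM, against 36.5 and 26.7 CPM in the other control libraries), and the part of this difference was not tested. Without control replicate 1 the log2 fold change was 0.79 (adjusted p = 0.0181 by edgeR). Without control replicate 2 the log2 fold change was 0.98, and the call was lost (adjusted p = 0.0583 by edgeR). Its promoter window held none of the 3 motifs. The microRNA gene MIR6890 is annotated inside QARS on the same strand.

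VARS, the valyl-tRNA synthetase, which binds the elongation factor eEF1, was the other gene called. VARS (ENSG00000204394.12, chromosome 6 from 31777518 to 31795752, minus strand) had 84.0, 105 and 115 CPM in the control libraries and 163, 149 and 128 CPM in the TFAM-OE libraries. The groups did not overlap, and the lowest TFAM-OE library, was replicate 3. The means were 101 ± 15.6 CPM and 147 ± 17.5 CPM (SD, n = 3 each), a ratio of 1.45 (95% interval 1.18 to 1.79; log2 fold change 0.54, SE 0.13, adjusted p = 0.0385 by edgeR). The call was lost without control replicate 1 (log2 fold change 0.43, adjusted p = 0.15), without control replicate 2 (0.57, adjusted p = 0.127) and without TFAM-OE replicate 2 (0.53, adjusted p = 0.149), all by edgeR.

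Of the 12 ATF4-linked cytosolic enzymes, VARS was thus the only gene called, with 0 called lower. Their median log2 fold change was 0.04 and their range from -0.21 to 0.54. Following VARS, MARS, the methionyl-tRNA synthetase, was at 228 ± 12.6 CPM in the control and 270 ± 2.60 CPM in TFAM-OE (SD, n = 3 each; log2 fold change 0.24, adjusted p = 0.118 by edgeR), and the groups did not overlap. MARS lies on chromosome 12 on the plus strand, and its annotated span overlaps DDIT3 on the minus strand, which fell by 2.22 on the log2 scale. Whether reads were counted by strand is not known, so those of the shared stretch could fall on either gene. AARS, the most abundant of the 12, was at 299 ± 16.6 CPM and 302 ± 17.7 CPM (SD, n = 3 each), which is 0.02 on the log2 scale (95% interval -0.19 to 0.23).

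EPRS, which joins the glutamyl and prolyl enzymes in a single protein, had the lowest value of the class and the widest spread. It had 130, 118 and 101 CPM in the control libraries and 68.0, 101 and 132 CPM in the TFAM-OE libraries. The TFAM-OE libraries ran from below to above every control library. Its log2 fold change was -0.21 (SE 0.20, adjusted p = 0.56 by edgeR), with a 95% interval from -0.66 to 0.25. LARS and NARS, for leucine and asparagine, were at -0.11 and -0.03, and GARS, CARS, YARS, SARS, IARS and TARS lay between 0.02 and 0.18. The 8 members that carry a CARE in their promoter window had a median of 0.08, with 0 called in either direction.

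The other genes known as ATF4 targets did not move as a block. Of 28 such genes, which hold no synthetase, 6 were called higher (21.4%) and 7 lower, against 3.48% and 4.81% of all genes tested. The log2 fold changes of the 28 had a median of 0.05 and a range from -2.83 to 0.86. PHGDH, the first enzyme of serine synthesis, rose from 51.2, 53.3 and 52.6 CPM to 77.1, 74.9 and 78.6 CPM (log2 fold change 0.55, adjusted p = 0.00628 by edgeR). SHMT2, the mitochondrial serine hydroxymethyltransferase, rose by 0.86 (adjusted p = 0.00682 by edgeR). ASNS rose by 0.53 (adjusted p = 0.0162 by edgeR). ATF3 and PPP1R15A, a transcription factor and a phosphatase subunit of the stress response, had log2 fold changes of -2.83 and -1.57 (adjusted p = 0.00276 and 0.00245 by edgeR). ATF4 mRNA itself was at -0.18 (adjusted p = 0.292 by edgeR). By comparison, 11 of the 12 ATF4-linked synthetases lay within 0.25 of 0 on the log2 scale.

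**Figure D3:**
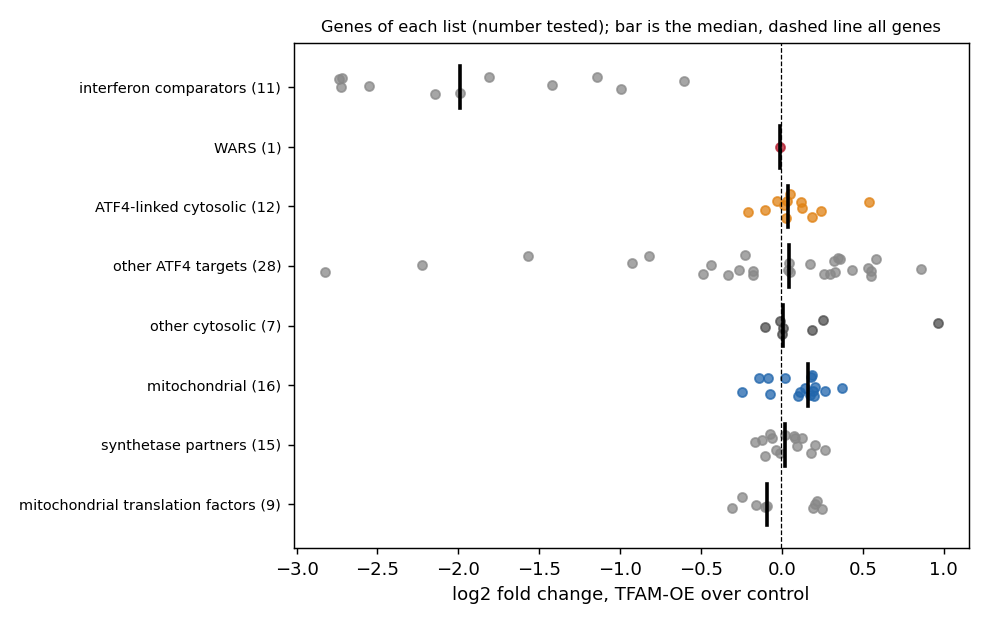
Log2 fold change, TFAM-OE over control, of each gene of 8 lists, with the median of the list as a black bar and that of all genes tested as a dashed line. The interferon genes lie between -2.74 and -0.61, the other ATF4 targets spread from -2.83 to 0.86, and the synthetase classes gather around 0 apart from QARS at 0.96 and VARS at 0.54.

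Among the 7 other cytosolic enzymes the median log2 fold change was 0.01, and QARS stood alone past the threshold. KARS, the lysyl-tRNA synthetase of both compartments, had the lowest value. It had 273, 263 and 298 CPM in the control libraries and 292, 261 and 223 CPM in the TFAM-OE libraries, which overlapped, and it was at -0.10 (SE 0.11, adjusted p = 0.612 by edgeR). HARS, for histidine, was at 92.3 ± 7.67 CPM and 110 ± 7.28 CPM (SD, n = 3 each), and its log2 fold change of 0.25 did not pass (adjusted p = 0.151 by edgeR). DARS, for aspartate, was at 0.19 (adjusted p = 0.267 by edgeR). FARSA and FARSB, whose products form the alpha and beta subunits of the phenylalanyl enzyme, were at -0.01 and 0.00. RARS, for arginine, was at 0.01.

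The 16 mitochondrial enzymes had 0 called in either direction. Their median log2 fold change was 0.16, and 12 of the 16 had a positive value, from 0.02 to 0.37. Over all genes tested, 48.9% had a positive value. SARS2, the seryl enzyme, had the highest value of the class, with 34.8, 48.4 and 53.8 CPM in the control libraries and 68.8, 59.4 and 48.6 CPM in the TFAM-OE libraries. TFAM-OE replicate 3 fell among the control libraries. Its log2 fold change was 0.37 (SE 0.17, adjusted p = 0.216 by edgeR), and it was called only in the fit on all genes with a read (adjusted p = 0.0447, where 3.46% of all genes were called higher) and without TFAM-OE replicate 3 (8.43%). EARS2, which also starts the route to mitochondrial glutaminyl-tRNA, was at 51.4 ± 6.68 CPM and 61.8 ± 2.49 CPM (SD, n = 3 each), with no overlap, a log2 fold change of 0.27 and an adjusted p of 0.172 by edgeR. HARS2, TARS2 and RARS2 were also above the control in every TFAM-OE library, at 0.20, 0.20 and 0.14. HARS and HARS2 lie head to head on chromosome 5, and their annotated 5′ ends overlap, from 140691430 to 140691537.

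WARS2 had the lowest value of all 36 genes. The mitochondrial tryptophanyl enzyme had 9.77, 10.3 and 10.2 CPM in the control libraries and 9.16, 8.69 and 7.56 CPM in the TFAM-OE libraries. All TFAM-OE libraries were below all control libraries, and WARS2 was the only gene of the 36 with that pattern. Its log2 fold change of -0.25 (SE 0.13, 95% interval from -0.54 to 0.04) did not pass (adjusted p = 0.267 by edgeR). AARS2, LARS2 and MARS2 were at -0.14, -0.08 and -0.07, and their groups overlapped.

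Counted over the 36 genes, 11 had every TFAM-OE library above every control library and 1 had every TFAM-OE library below, whereas over all genes tested 15.8% separated in each direction. Their median was 0.10 on the log2 scale, and 26 of them (72.2%) had a positive value, against 48.9% of all genes tested. The number with a positive value depended on the fit, at 22 with scaling by library size alone, 20 in both fits on FPKM and 29 with offsets for GC content and length. The 2 called genes are both class I enzymes, the structural class with a Rossmann-fold catalytic domain. The median was 0.11 over the 18 class I genes and 0.10 over the 17 class II genes, with EPRS holding both.

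Per length, the cytosolic enzymes were the more abundant. In the deposited FPKM values of the control, the ATF4-linked cytosolic enzymes had a median of 35.5 FPKM, the other cytosolic enzymes 31.8 FPKM and the mitochondrial enzymes 8.54 FPKM. KARS was the highest at 97.4 ± 5.31 FPKM (SD, n = 3), above all control values of the next gene, AARS, at 73.5 ± 6.01 FPKM. WARS was at 33.2 ± 0.902 FPKM, a level that its neighbours in the order, TARS and IARS, shared within the spread of the libraries. The lowest were WARS2 at 3.04 ± 0.0503 FPKM and PARS2, the prolyl enzyme, at 2.50 ± 0.344 FPKM. QARS at 16.3 ± 3.79 FPKM was among the lowest cytosolic enzymes in the control, and it was at 31.5 ± 2.07 FPKM in TFAM-OE. Only HARS had a lower control mean among the cytosolic enzymes, and their order was not resolved. The control libraries had 12.47, 16.4 and 20.05 FPKM for QARS and 14.42, 15.45 and 16.16 FPKM for HARS. Those of EPRS and VARS also overlapped QARS.

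**Figure D4:**
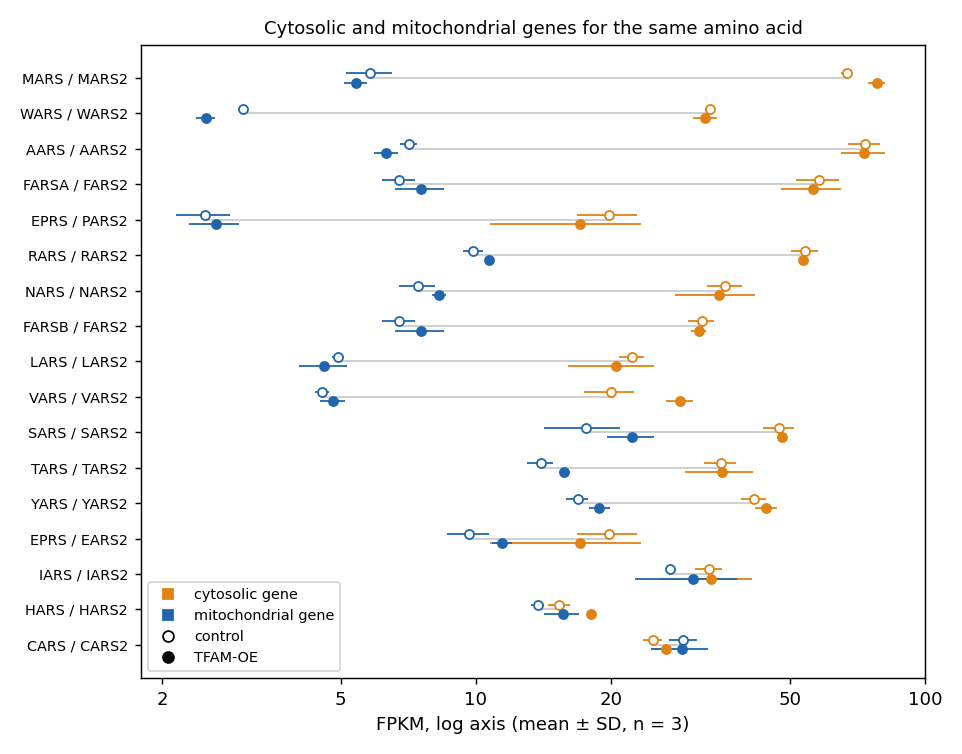
FPKM (mean ± SD, n = 3, log axis) of the cytosolic and the mitochondrial gene for the same amino acid in control (open) and TFAM-OE (filled). The pairs are ordered by their ratio in the control, from CARS and CARS2 at the bottom (0.86-fold) to MARS and MARS2 at the top (11.6-fold).

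The ratio of the 2 compartments for an amino acid needs no scaling for the depth of the libraries. Differences between libraries that vary with GC content, described below, do not cancel in it, and it was not adjusted for them. In FPKM, the cytosolic gene exceeded the mitochondrial gene by 11.6-fold for methionine, 10.9-fold for tryptophan and 10.4-fold for alanine in the control, whereas the 2 genes were near each other for histidine (1.12-fold), isoleucine (1.22-fold) and cysteine (0.86-fold). WARS had 16.05, 16.6 and 16.5 reads for each read of WARS2 in the control libraries and 18.4, 18.1 and 21.8 in the TFAM-OE libraries. The ratio was higher in every TFAM-OE library, by 0.24 on the log2 scale. In the exact two-sided permutation test p was 0.1, which is the lowest value this design can give (0.567 after Benjamini-Hochberg adjustment over the 17 pairs). VARS had 3.85, 4.82 and 5.33 reads for each read of VARS2 in the control and 6.45, 6.11 and 6.26 in TFAM-OE, a difference of 0.44 on the log2 scale with the same exact permutation p. RARS separated from RARS2 the other way, with 6.87, 6.64 and 6.92 reads for each in the control and 6.22, 6.16 and 6.28 in TFAM-OE, a difference of -0.13 on the log2 scale (exact permutation p = 0.1). In the other 14 pairs the exact permutation p lay between 0.2 and 1. VARS2 itself was at 0.11 (adjusted p = 0.597 by edgeR).

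The partners of the synthetases were near their control levels too. In cells, 8 of the cytosolic enzymes (EPRS, IARS, LARS, MARS, QARS, RARS, KARS and DARS) form the multi-tRNA synthetase complex on the scaffold proteins AIMP1, AIMP2 and EEF1E1. Of these 8, QARS was called higher and 0 were called lower, and their median was 0.02 on the log2 scale. AIMP1, AIMP2 and EEF1E1 were at -0.17, 0.02 and 0.08 (adjusted p = 0.356, 0.95 and 0.83 by edgeR). Of 15 partner genes, which also hold the eEF1 subunits EEF1B2, EEF1D and EEF1G that VARS binds, the GatCAB subunits and the tRNA exporter XPOT, 0 were called in either direction. At an unadjusted p below 0.05, 1 was higher and 0 lower. That gene was GATC, at 0.27 (adjusted p = 0.184 by edgeR). Of 9 mitochondrial translation factors, 0 were called, with a median of -0.09, and the smallest p was that of the initiation factor MTIF2, at -0.31 (adjusted p = 0.101 by edgeR).

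**Figure D5:**
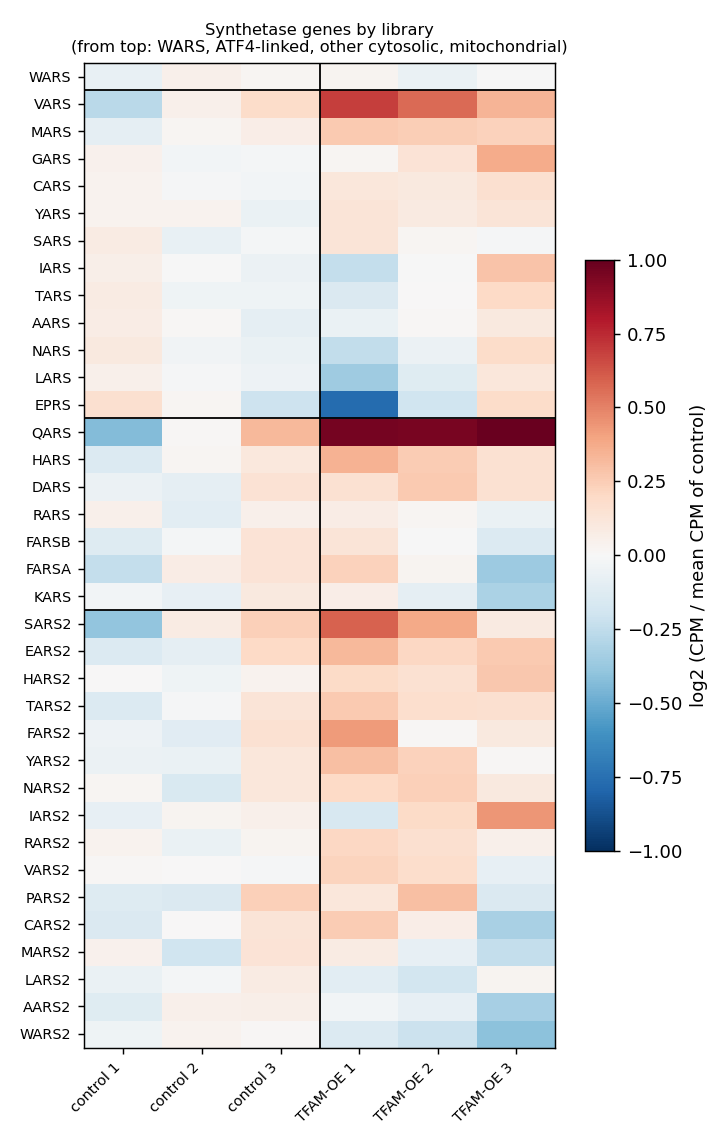
Level of each synthetase gene in each of the 6 libraries as log2 of its CPM over the mean CPM of the control, by class and ordered within a class by fold change. QARS is high in all 3 TFAM-OE libraries, whereas EPRS, IARS, LARS and IARS2 are lower in TFAM-OE replicate 1 than in replicate 3, and FARSA, CARS2 and SARS2 are higher.

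The spread within TFAM-OE was itself patterned over the members. Between TFAM-OE replicates 3 and 1, EPRS differed by 0.96 on the log2 scale, IARS2 by 0.60, IARS by 0.52 and LARS by 0.47, all higher in replicate 3. FARSA, CARS2 and SARS2 were lower in replicate 3, by -0.59, -0.57 and -0.50. QARS and WARS differed by 0.03 and -0.03 between these libraries. Across the 36 genes, this difference had a correlation of -0.55 with the GC content of the canonical transcript (GENCODE version 44), and the difference between control replicates 3 and 1 a correlation of 0.52. Over 16342 genes these correlations were -0.34 and 0.26, in the same directions, so the trend was not particular to the synthetases. The log2 fold change itself had a correlation of 0.37 with GC content over the 36 genes and 0.20 over the 16342 genes. All these points share the same 6 libraries, so the correlations are given as a description. VARS has the highest GC content of the 36 transcripts, 61.7%, and QARS has 54.8%. With offsets per library for GC content and transcript length, the log2 fold change was 0.97 for QARS (adjusted p = 0.00156), 0.47 for VARS (adjusted p = 0.0106) and 0.048 for WARS (adjusted p = 0.691), all by edgeR. In that fit 6 synthetases were called higher (MARS, VARS, DARS, HARS, QARS and HARS2) and 0 lower, where 11.7% of all genes were called higher.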

How the data were processed

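PolyA RNA was sequenced from A549 cells, 3 control and 3 TFAM-OE libraries. The authors trimmed the reads (FASTX-Toolkit 0.0.13), aligned them to GRCh38 with TopHat2 and deposited, unpooled, raw counts of uniquely mapped reads per gene. The FPKM values were also calculated and deposited by the authors. How reads were assigned to genes (program, annotation, strand) is not given in the sources used here. Unused value columns numbered 0. Genes kept by filterByExpr were tested in R (4.3.3) with edgeR (4.0.16), TMM scaling, the quasi-likelihood test, two-sided, and Benjamini-Hochberg adjustment. A fit on every gene with a read had infinite prior degrees of freedom, so that 1 spread was shared across genes, and it was kept as an alternative. SE is the log2 fold change over the root of F. CPM are TMM-scaled. Fits were tested on simulated data. Alternatives were DESeq2 (1.42.0), limma (3.58.1) voom and trend on FPKM plus 0.1 or 1, other scalings, left-out libraries, a replicate block and, added after the data were seen, GC and length offsets. The members, classes and lists were chosen with earlier results of these data known. All 36 members are reported. Values per library are given for WARS, WARS2, the called members and the extremes of each class. MRPL58 and CD3E had no row under that symbol. The read totals bound counting error only, and the 3 replicates per group set the precision.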

Additional observations from a re-analysis of the deposited data

How the results depend on the processing

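In no fit was a synthetase called lower. WARS was called in no fit. Its log2 fold change, negative in the others, was positive in 3 fits: with offsets for GC content and length (0.048), without control replicate 2 (0.019) and without TFAM-OE replicate 2 (0.016). With a library left out it ran from -0.044 to 0.019. The difference in the WARS to WARS2 ratio was 0.24 also in FPKM and ran from 0.16 to 0.29 with a library left out. Higher calls among ATF4-linked enzymes (1, VARS) were 2 with the offsets and 0 to 1 with a library left out. Those among other cytosolic enzymes (1, QARS) were 3 with the offsets and 0 to 2 with a library left out, the 0 without control replicate 2 and the 2 without TFAM-OE replicate 3. Those among mitochondrial enzymes (0) were 1 on all genes with a read, 1 with the offsets and 0 to 1 with a library left out. The log2 fold change of QARS ran from 0.79 to 1.16 and that of VARS from 0.43 to 0.64 with a library left out.

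Replicate numbers did not pair the libraries. Deviations of same-numbered libraries correlated at -0.21, 0.00 and -0.25, and 0 of 6 libraries correlated best with their own number. With the replicate number as a block, QARS was called (log2 fold change 1.00, adjusted p = 0.0324), VARS was not (0.54, adjusted p = 0.151), so that ATF4-linked enzymes called higher numbered 0, and 359 genes were called in place of 1372, all by edgeR. Calls over all genes also fell to 342 without control replicate 1, 306 without control replicate 2 and 351 without TFAM-OE replicate 2. They rose to 3214 without TFAM-OE replicate 3, to 2037 in DESeq2 and to 3142 with the offsets. The offsets gave 1904 higher and 1238 lower, against 576 and 796. On all genes with a read 2519 were called, but of 29845 genes, and this share of 8.44% was near the 8.29% of the main fit. With a library left out, that group had 2 libraries.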

Other observations

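Outside the 36, a further synthetase gene and antisense genes of members were in the count table. TARSL2, a second gene of the threonyl type, had 12.1, 11.7 and 12.4 CPM in the control libraries and 9.98, 11.1 and 11.5 CPM in TFAM-OE. It was below the control in every TFAM-OE library and at -0.15 on the log2 scale (adjusted p = 0.476 by edgeR). The antisense genes CARS-AS1 and DARS-AS1 were under 2 CPM in every library, with adjusted p of 0.427 and 0.574 by edgeR.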
